A study of Mus musculus with 4 samples.

Results

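Aminoacyl-tRNA synthetases were examined in mouse CD4+ T cells cultured with or without dopamine. The 35 members, 35 of the 38282 gene IDs in the deposited tables, were taken by name, each matched through its Ensembl ID to GENCODE M21. By textbook location, 17 encode cytosolic enzymes, 16 encode mitochondrial enzymes, and 2, Gars and Kars, encode the enzyme of both compartments from a single gene. Naive CD4+ T cells from the spleen of C57BL/6 mice were kept under the Th0 condition (the usual name for activation with no lineage-steering cytokines), either alone (Th0) or with dopamine added (Th0+Dopa), until day 4. There were 2 libraries per group, numbered 2 and 3. The sources used here give neither the age of the mice nor the stimulus nor the dose and timing of dopamine. The labels do not say whether the libraries stem from different animals or cultures, so the spread behind the p-values is that between these samples and may be technical.

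Each synthetase joins a given amino acid to its tRNAs, the step that fixes the meaning of the genetic code in protein synthesis. Mitochondria translate their own few messages with a separate set of enzymes, encoded in the nucleus and imported. In the cytosol several synthetases sit together with scaffold proteins in the multisynthetase complex, while others are free. When amino acids run short or the endoplasmic reticulum is stressed, the transcription factor ATF4 raises many genes of amino acid supply, and numerous cytosolic synthetase genes are known among its targets. T cells that leave quiescence enlarge their protein synthesis, and tRNA charging grows with it.

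Levels are in FPKM (fragments per kilobase of transcript, scaled to the library's mapped fragments), in 2 tables made separately, the libraries numbered 2 in the first and those numbered 3 in the second. Groups were therefore compared within a table, and the difference of a gene is the mean of its 2 within-table differences in log2(FPKM + 1), Th0+Dopa minus Th0; the standard error (SE) follows it after ±. By limma with Benjamini-Hochberg adjustment over the 11423 genes with a mean of at least 1 FPKM, an adjusted p under 0.05 was a call. Summed FPKM was 687066 in Th0 2 and 715110 in Th0 3, and higher with dopamine, at 880583 and 794873. Mitochondrially encoded genes made up 5.64% and 8.41% of the sum in the Th0 libraries, and their share was lower in the dopamine libraries, at 1.55% and 3.35%. The share of small RNAs was 18.3% and 16.5% without dopamine, and 26.0% and 20.6% when it was added. The part of these shifts in the results was not tested. By an estimate from low values, a transcript of 1 kb gained 0.15 to 0.199 FPKM per fragment, which put at least 22.9 fragments behind every member's value and at least 90.02 behind every member called. T cell markers summed to 1060 and 1149 FPKM in Th0 and 1031 and 1077 with dopamine. Behind these sums Trac, the T cell receptor alpha constant gene, fell (-0.70 ± 0.10, limma adjusted p = 0.0148) while Cd5 and Cd3d rose (0.96 ± 0.10 and 0.48 ± 0.10), and the other 4 of the 7 markers were not called. Markers of other cells moved with the treatment. The 9 granulocyte, mast cell and basophil markers summed to 446 and 593 FPKM in Th0 and to 50.04 and 46.5 with dopamine, where Elane was listed at 0. The 9 macrophage and dendritic cell markers summed to 220.1 and 299 FPKM against 26.9 and 28.7. B cell markers stayed between 2.45 and 5.26 FPKM in sum and NK cell markers under 1 FPKM, with Ncr1 listed at 0 in every library. The part of these other cells in the results below was not tested, and in bulk RNA fewer cells of a type and less RNA per cell cannot be told apart.

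Synthetase transcripts stood mostly higher with dopamine. Among the 35 members, all of which passed the filter, 7 rose and 0 fell, against 6.28% of all tested genes called higher and 4.39% called lower. The 7 were Gars, Nars, Cars, Tars, Lars and Aars, which charge glycine, asparagine, cysteine, threonine, leucine and alanine, and the mitochondrial tyrosyl enzyme Yars2. At an unadjusted p under 0.05 there were 21 members, all of them higher in the dopamine libraries, against 15.7% of all tested genes higher at that threshold. With dopamine, 29 members were higher in both tables and 2 were lower in both, while 4 went opposite ways. Of all tested genes 37.6% were higher and 32.3% lower in both. The median difference of the members was 0.40, against 0.03 over all tested genes, and it was 0.38 in the first table and 0.36 in the second. The estimates depend on scale and on single libraries. With each library scaled to a common FPKM sum, which moves the median of all genes from 0.03 to -0.20, the members' median was 0.16 and 2 calls remained, Gars and Nars; 29 of the 35 members lay above the median of all genes there and 30 as deposited. No member was called in any of the 4 fits that each left out a library (limma adjusted p of the 7 from 0.140 to 0.497), in which no more than 0.114% of all genes were called higher, nor without limma's trend (0.105 to 0.151); the 7 stayed above 0 in each of these fits.

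**Figure D1:**
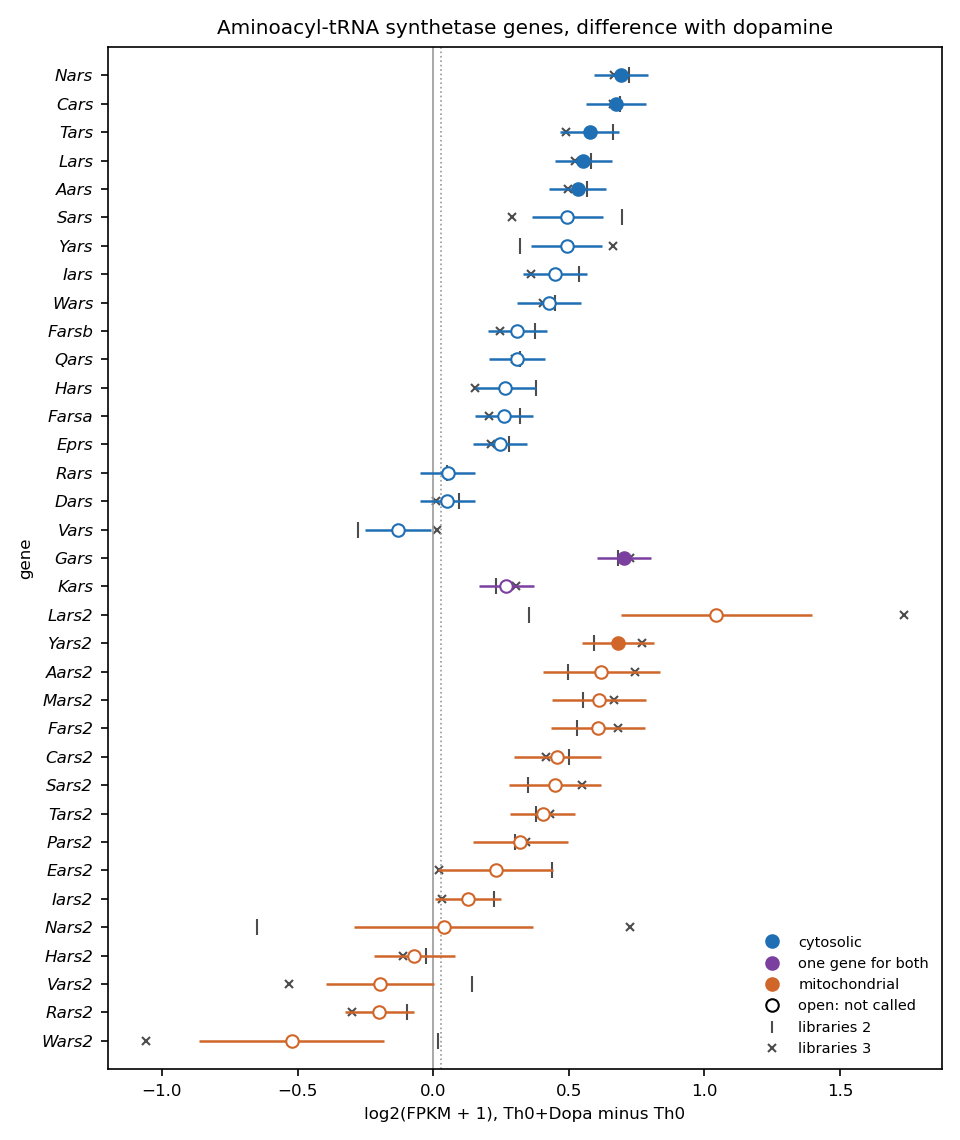
Difference in log2(FPKM + 1), Th0+Dopa minus Th0, for the 35 synthetase genes, as the estimate (circle, filled where called) with its SE (bar) and the difference within each table (vertical tick, libraries 2; cross, libraries 3). The solid line is 0 and the dotted line the median of all tested genes, 0.03; the 7 called genes lie between 0.53 and 0.70, and both pairs of Lars2, Nars2, Vars2 and Wars2 lie far apart.

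The glycyl-tRNA synthetase Gars (ENSMUSG00000029777, chromosome 6, 55038007 to 55079500, GRCm38), whose single gene serves cytosol and mitochondria, stood at 172 FPKM in Th0 2 and 143 in Th0 3, and at 275 and 237 in Th0+Dopa 2 and 3. Both dopamine libraries lay above both Th0 libraries, and Gars, with Kars or Sars ahead of it in each Th0 library, was the most abundant member in both dopamine libraries. Its difference was 0.70 ± 0.10, or 1.63-fold (limma adjusted p = 0.0144). Nars (chromosome 18, 64499647 to 64516652), the cytosolic asparaginyl enzyme, had 119 and 115 FPKM in Th0 and 196 and 184 with dopamine. The replicates of each group were close together and the groups far apart, with a difference of 0.69 ± 0.10 (adjusted p = 0.0148). Cars (chromosome 7, 143557230 to 143600090), which charges cysteine, went from 38.9 and 37.5 FPKM to 63.3 and 59.8. Its differences in the 2 tables, 0.69 and 0.66, were nearly equal (0.67 ± 0.11, adjusted p = 0.0210).

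The threonyl enzyme Tars (chromosome 15, 11382301 to 11399665) had 84.6 and 88.6 FPKM in Th0 and 134.7 and 125 with dopamine, a difference of 0.58 ± 0.11 (limma adjusted p = 0.0308). Lars (chromosome 18, 42202298 to 42262194), the leucyl enzyme, which in human cells is also described as a leucine sensor for the growth kinase mTORC1, had 59.0 and 57.8 FPKM against 88.8 and 83.5. The groups did not overlap for either gene, and the difference of Lars was 0.55 ± 0.11 (adjusted p = 0.0323). Aars (chromosome 8, 111033144 to 111057664), which charges alanine, had 67.3 and 60.7 FPKM in Th0 and 100.3 and 86.1 with dopamine. Its difference of 0.53 ± 0.10 (adjusted p = 0.0349) was the lowest of the 7. In a fit without the table as a block only Cars and Nars of these genes passed.

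**Figure D2:**
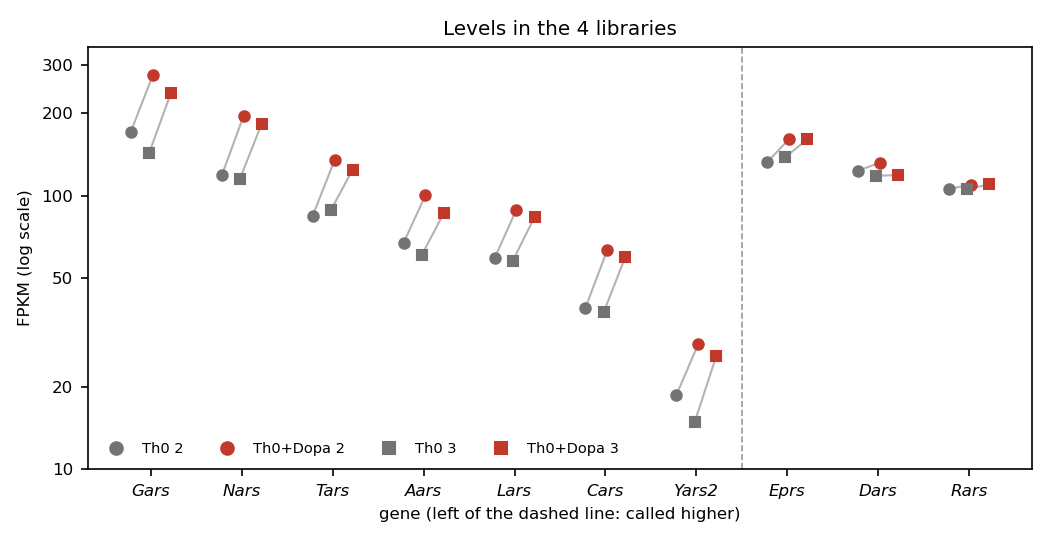
FPKM (log axis) of the 7 called genes and of Eprs, Dars and Rars, which were not called, in each library; lines join the libraries of the same table. In each called gene both dopamine libraries lie above both Th0 libraries, as in Gars (275 and 237 against 172 and 143), while Rars stays between 106 and 110.03.

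All 6 calls among the genes for cytosolic enzymes were known ATF4 targets. A list of 11 synthetase genes known as such targets (Aars, Cars, Eprs, Gars, Iars, Lars, Nars, Sars, Tars, Wars and Yars) was taken from general knowledge, but with earlier results of these data known, so the split between it and the other genes is a description and no independent evidence. Of the 11 listed genes 6 rose and 0 fell, against 6.28% of all tested genes called higher and 4.39% called lower. All 11 were higher with dopamine in both tables, as were 37.6% of all tested genes, and their median difference was 0.53. Among the 8 other genes for cytosolic enzymes (Dars, Farsa, Farsb, Hars, Kars, Qars, Rars and Vars) 0 were called by limma, and the median was 0.26. At an unadjusted p under 0.05 by limma there were 3, all higher, against 15.7% of all tested genes higher at that threshold. The difference between the medians was 0.31 in the first table and 0.32 in the second, and it was not tested, since genes are not replicates. Apart from Eprs, at 0.25 ± 0.10, every gene of the list had a difference of 0.43 or more, above the highest of the other 8, Farsb at 0.31 ± 0.11. Atf4 itself stood at 160.5 and 151 FPKM in Th0 and at 254.5 and 250.3 with dopamine (0.69 ± 0.10, limma adjusted p = 0.0148). Of 22 amino acid response genes other than synthetases, Atf4 among them, 13 rose and 1, Vldlr, fell, with a median of 0.77, against the 6.28% and 4.39% of all tested genes. The others that rose were Asns, Psat1, Phgdh, Psph, Shmt2, Mthfd2, Aldh18a1 and Pck2, enzymes of amino acid and one-carbon metabolism or, for Pck2, of mitochondrial phosphoenolpyruvate synthesis, the amino acid transporter Slc7a5, and Trib3, Chac1 and Cebpb. The genes of this list did not move alike, and 8 of the 22 were not called. Of these, Slc7a11 was lower in both tables (-0.43 and -0.52), and Ddit3, Ddit4, Nupr1 and Gpt2 went opposite ways. Slc3a2, Sesn2 and Pycr1 were higher in both, at 0.12 ± 0.10, 0.38 ± 0.18 and 1.02 ± 0.26. These are transcript levels, and the part of ATF4 or of an amino acid response in them was not tested.

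Promoters were read from RefSeq's table (GRCm38.p6), 250 bases before to 50 after the start of transcription, for the 26 members it matched. The C/EBP-ATF response element, at which ATF4 pairs with C/EBP proteins, was searched on both strands as TGATGNAA. It was present in 5 of the 26, Gars, Tars, Aars, Yars and Iars, against 3.97% of all 32851 promoters and 2.71% of 8328 tested genes. All 5 belong to the list of known targets, of which 7 had a promoter, while 0 of 5 other cytosolic members and 0 of 14 mitochondrial members held it. The element is the site of ATF4 itself, so a list of ATF4 targets is not independent of it. Nars, Cars and Lars, which were called higher, were not among the 26, and their promoters were not searched. The CCAAT box, searched in the same way and overlapping the first motif in 0 places in these genes, was in 12 of the 26 (46.2%), in 37.4% of all promoters and in 43.2% of the 8328 tested genes. In Tars the element ended 8 bases before the start and in Gars 23 bases before it. Aars held a copy ending 105 bases before the start and another beginning 10 bases into the transcript, and in Yars and Iars it began 4 and 8 bases into the transcript. A match is a description of letters, not evidence of binding. The sequences of these 5 are shown because they carry the motif, beside those of Yars2, which rose without the motif, and Dars, which did not pass the test. Each runs 5′ to 3′ on the gene's strand from 250 bases before the start to 30 after it, with the motif in capitals (TTNCATCA is the same motif on the other strand).
Gars, chr6:55037751-55038030, plus strand: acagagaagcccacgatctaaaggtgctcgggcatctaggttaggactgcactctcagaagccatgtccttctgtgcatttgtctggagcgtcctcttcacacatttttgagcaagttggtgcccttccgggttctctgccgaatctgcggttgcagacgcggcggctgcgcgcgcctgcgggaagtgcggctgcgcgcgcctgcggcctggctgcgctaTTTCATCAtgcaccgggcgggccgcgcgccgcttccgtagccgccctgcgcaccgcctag
Tars, chr15:11399629-11399908, minus strand: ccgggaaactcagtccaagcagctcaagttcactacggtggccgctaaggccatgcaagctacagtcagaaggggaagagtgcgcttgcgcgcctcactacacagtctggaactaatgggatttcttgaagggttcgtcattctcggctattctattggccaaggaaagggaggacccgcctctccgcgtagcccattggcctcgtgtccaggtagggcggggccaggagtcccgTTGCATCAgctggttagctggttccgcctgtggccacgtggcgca
Aars, chr8:111033592-111033871, plus strand: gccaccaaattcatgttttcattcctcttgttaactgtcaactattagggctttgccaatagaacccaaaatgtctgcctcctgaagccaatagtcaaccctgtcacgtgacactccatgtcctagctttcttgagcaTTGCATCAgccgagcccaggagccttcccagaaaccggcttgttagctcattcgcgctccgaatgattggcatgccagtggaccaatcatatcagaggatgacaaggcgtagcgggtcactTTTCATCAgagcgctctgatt
Yars, chr4:129189653-129189932, plus strand: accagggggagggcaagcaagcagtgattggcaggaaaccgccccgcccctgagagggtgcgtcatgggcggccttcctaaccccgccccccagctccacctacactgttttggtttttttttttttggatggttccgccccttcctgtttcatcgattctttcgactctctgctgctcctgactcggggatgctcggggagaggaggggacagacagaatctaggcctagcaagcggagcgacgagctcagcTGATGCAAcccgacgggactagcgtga
Iars, chr13:49681880-49682159, plus strand: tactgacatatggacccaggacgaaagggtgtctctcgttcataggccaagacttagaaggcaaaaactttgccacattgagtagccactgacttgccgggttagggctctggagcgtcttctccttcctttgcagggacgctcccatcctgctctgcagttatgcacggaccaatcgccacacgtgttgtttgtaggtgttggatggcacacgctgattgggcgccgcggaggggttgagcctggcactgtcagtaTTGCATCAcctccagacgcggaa
Yars2, chr16:16302715-16302994, plus strand: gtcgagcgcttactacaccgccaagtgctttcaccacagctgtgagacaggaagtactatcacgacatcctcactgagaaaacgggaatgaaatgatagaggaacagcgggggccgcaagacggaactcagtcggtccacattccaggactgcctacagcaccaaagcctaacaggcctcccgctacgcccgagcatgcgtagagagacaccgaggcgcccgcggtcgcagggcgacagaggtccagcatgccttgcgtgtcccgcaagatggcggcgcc
Dars, chr1:128417387-128417666, minus strand: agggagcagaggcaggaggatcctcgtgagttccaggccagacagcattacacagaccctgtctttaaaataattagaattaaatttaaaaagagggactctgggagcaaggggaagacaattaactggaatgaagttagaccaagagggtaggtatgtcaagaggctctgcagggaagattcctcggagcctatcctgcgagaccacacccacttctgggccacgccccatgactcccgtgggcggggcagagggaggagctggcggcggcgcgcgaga

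**Figure D3:**
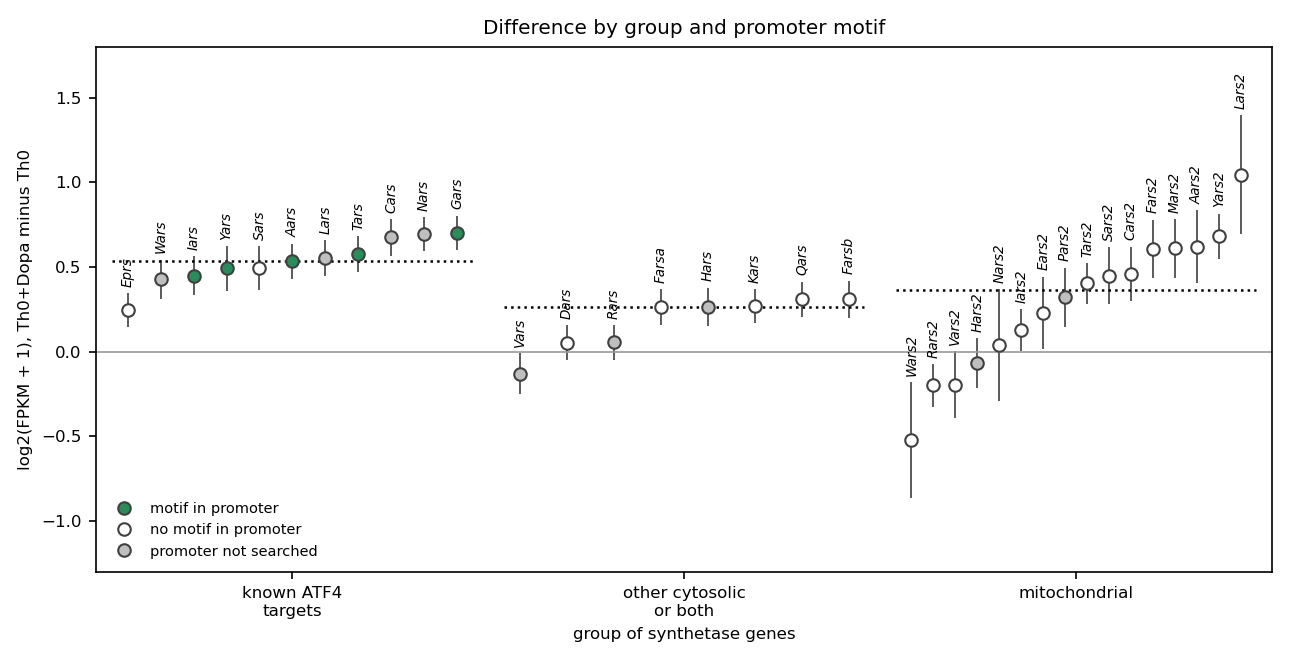
Difference in log2(FPKM + 1) with SE bars for the 11 known ATF4 target synthetases, the 8 other genes for cytosolic enzymes and the 16 mitochondrial enzymes; dotted lines are medians (0.53, 0.26 and 0.36). Green marks the 5 genes with the TGATGNAA motif in the promoter, white those without it and grey those whose promoter was not searched.

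Of the list of known targets, 5 genes did not pass the test. Sars, the cytosolic seryl enzyme, was among the most abundant members, with 161 and 166 FPKM in Th0 and 261 and 203 with dopamine; its difference was 0.70 in the first table and 0.29 in the second (0.49 ± 0.13, limma adjusted p = 0.0719, or 0.0493 with a pseudocount of 0.1). Yars, the cytosolic tyrosyl enzyme, spread the other way, with 42.6 and 37.1 FPKM against 53.5 and 59.3 (0.49 ± 0.13, adjusted p = 0.0730). The groups did not overlap for either gene, but the tables disagreed on the size. Iars, for isoleucine, had 0.45 ± 0.12 (adjusted p = 0.0680). Wars, the tryptophanyl enzyme, which is also known as an interferon-induced gene, was the least abundant cytosolic member, at 29.6 and 28.0 FPKM in Th0 and 40.7 and 37.4 with dopamine (0.43 ± 0.12, adjusted p = 0.0783). Eprs, the bifunctional enzyme for glutamate and proline, had 133 and 139 FPKM in Th0 and 161 in both dopamine libraries, with an adjusted p of 0.184.

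The 7 members that sit in the multisynthetase complex were Eprs, Iars, Lars, Qars, Rars, Kars and Dars. Their median difference was 0.27, with Lars the only call, against 6.28% of all tested genes called higher. A single call in so small a set is no result about the complex. The 12 other genes for cytosolic enzymes had a median of 0.49, and 5 of them rose. Lars and those 5 all belong to the list of known ATF4 targets. This split therefore overlaps the split by that list, and the part of each was not tested. All 7 complex members were higher with dopamine in both tables, as were 37.6% of all tested genes, but Rars and Dars barely so. Rars, the arginyl enzyme, had 106 FPKM in both Th0 libraries and 109.8 and 110.03 with dopamine (0.05 ± 0.10, limma adjusted p = 0.774). Dars, the aspartyl enzyme, had 123.6 and 118 FPKM in Th0 and 132 and 119 with dopamine, so that the groups overlapped (0.05 ± 0.10, adjusted p = 0.783). Kars, the lysyl enzyme of both compartments, was the most abundant member in Th0 2, at 189 FPKM, and had 161 in Th0 3 and 223 and 199 with dopamine (0.27 ± 0.10, adjusted p = 0.154). The scaffold proteins of the complex went different ways: Aimp1 rose, from 81.5 and 78.9 to 117 and 106 FPKM (0.47 ± 0.10, adjusted p = 0.0450), while Aimp2 and Eef1e1 had -0.20 ± 0.13 and -0.03 ± 0.10 and were not called. Qars, the glutaminyl enzyme, had 0.31 ± 0.10 and was not called. Outside the complex, Farsa and Farsb, the alpha and beta subunits of the cytosolic phenylalanyl enzyme, had close differences of 0.26 ± 0.11 and 0.31 ± 0.11. Vars, the valyl enzyme, was the only cytosolic member with a negative difference (-0.13 ± 0.12, adjusted p = 0.537), from 73.0 and 59.7 FPKM in Th0 to 60.05 and 60.4. Its whole difference came from the first table (-0.28, against 0.02 in the second).

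Mitochondrial enzymes were far less abundant. Their median level was 8.91 and 6.38 FPKM in the Th0 libraries and 11.2 and 10.4 with dopamine, while that of the 17 cytosolic enzymes was 75.5 and 63.3 against 99.6 and 83.7. Among 16 mitochondrial members 1 rose and 0 fell, and the median difference was 0.36. With dopamine 11 were higher in both tables and 2 were lower in both, against 37.6% and 32.3% of all tested genes. The 1 call is close to the share of all tested genes called higher, 6.28%, and is no result about the class. Yars2 (chromosome 16, 16302965 to 16309640), the mitochondrial tyrosyl enzyme, went from 18.6 and 14.8 FPKM to 28.6 and 25.9, a difference of 0.68 ± 0.13 or 1.60-fold (limma adjusted p = 0.0351). The most abundant ones were not called: Iars2, for isoleucine, had 35.7 and 34.1 FPKM in Th0 and 41.8 and 34.9 with dopamine, and Rars2, for arginine, had 30.9 and 35.9 against 28.8 and 29.0. Tars2, for threonine, had 26.7 and 24.7 FPKM in Th0 and 35.1 and 33.6 with dopamine, with no overlap of the groups (0.40 ± 0.12, adjusted p = 0.0950). Aars2, Mars2 and Fars2, for alanine, methionine and phenylalanine, had 0.62 ± 0.22, 0.61 ± 0.17 and 0.61 ± 0.17, as large as the calls among cytosolic genes but with wider errors at levels of 2.60 to 10.8 FPKM. Fars2 shares 501 exon bases with Nrn1 on the opposite strand, which stood at 34.03 and 37.2 FPKM in Th0 and 77.1 and 68.8 with dopamine. Iars2 shares 2034 exon bases with Rab3gap2, at 8.79 to 10.3 FPKM, and Cars2 shares 422 with Naxd, at 25.7 to 33.2 FPKM, also on opposite strands. The use of strand in counting is not given, and the part of these neighbours' reads was not tested. Cars2, Sars2, Pars2 and Ears2, for cysteine, serine, proline and glutamate, had 0.46 ± 0.16, 0.45 ± 0.17, 0.32 ± 0.18 and 0.23 ± 0.21, and none of them was called.

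For several mitochondrial enzymes the tables went apart. Lars2, for leucine, had the largest difference of all members, 1.04 ± 0.35 (limma adjusted p = 0.124), but its size depended on a single library. The levels were 4.13 and 2.70 FPKM in Th0 2 and 3, 5.54 in Th0+Dopa 2 and 11.3 in Th0+Dopa 3. Lars2 was higher with dopamine in both tables (0.35 and 1.74), and without Th0+Dopa 3 the difference was 0.57. Nars2, for asparagine, had 16.3 FPKM in Th0 2 and 5.88 in Th0 3, against 10.01 and 10.4 with dopamine, so the dopamine libraries lay between the Th0 libraries; the difference was 0.69 without Th0 2 and -0.66 without Th0 3 (adjusted p = 0.954 with all libraries). Wars2, for tryptophan, had 1.93, 1.97 and 1.91 FPKM in Th0 2, Th0+Dopa 2 and Th0+Dopa 3 and 5.06 in Th0 3, without which its difference of -0.52 ± 0.34 (adjusted p = 0.375) was -0.02. Vars2, for valine, was higher in the first table and lower in the second (0.14 and -0.53). Hars2 and Rars2 were lower in both tables by small amounts, -0.07 ± 0.15 and -0.20 ± 0.13. Hars2 lies head to head with its cytosolic relative Hars on chromosome 18, with 195 exon bases in common on opposite strands; Hars had 0.27 ± 0.11 (adjusted p = 0.198).

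Cytosolic and mitochondrial enzymes did not differ in a way that held in both tables. The medians of the fitted differences were 0.43 for 17 cytosolic and 0.36 for 16 mitochondrial members, a gap of 0.06. Taken within each table, the gap between the medians was 0.03 in the first and -0.12 in the second, so its sign differed. Medians do not average, and 0.06 is not the mean of the gaps in the tables. Cytosolic members or genes of both compartments made 6 of the 7 calls and mitochondrial members 1, but the standard errors of the less abundant mitochondrial genes were larger (up to 0.35, against at most 0.13 for cytosolic members), so these counts do not compare effect sizes. Amino acid by amino acid, 16 pairings of a cytosolic with a mitochondrial gene could be formed, with Eprs set against both Ears2 and Pars2 and Fars2 against both Farsa and Farsb. The signed difference was higher for the cytosolic gene in both tables in 6 pairings (those for tryptophan, histidine, isoleucine, arginine, cysteine and threonine), and for the mitochondrial gene in 4 (those of Fars2, Yars2 and Pars2), and the tables gave opposite answers in 6. Iars and Iars2 were the most even pairing in level, with an FPKM ratio of 0.999 in Th0 2 and 1.62 in Th0+Dopa 3, and in the other 15 the cytosolic gene was the more abundant in every library, by up to 34.0-fold for Eprs over Ears2. The order is of signed values and not of size: for arginine Rars had 0.05 and 0.06 and Rars2 -0.10 and -0.30. The pairings were not tested.

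**Figure D4:**
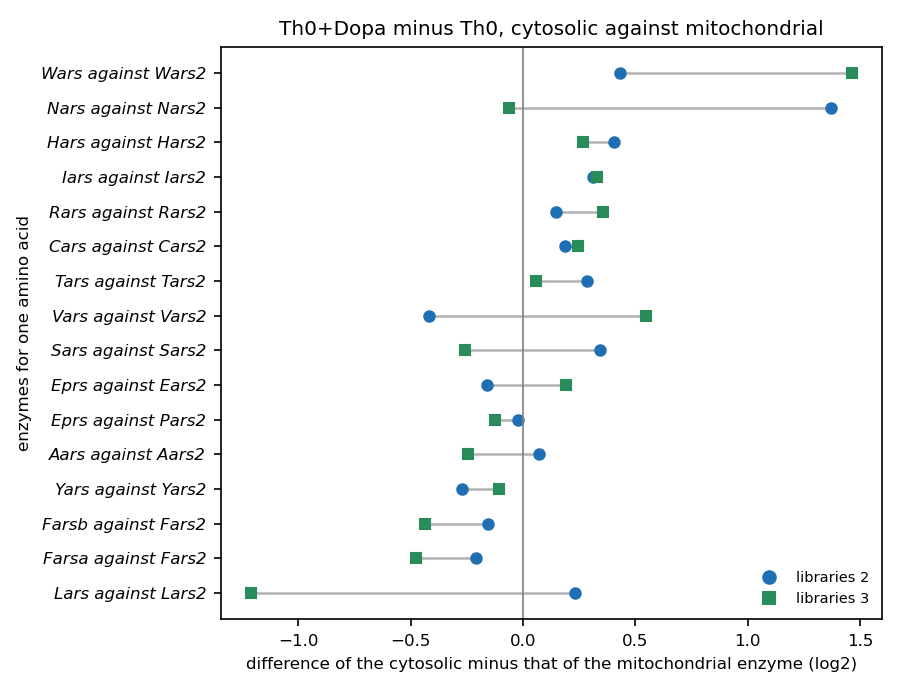
Difference of the cytosolic enzyme minus that of the mitochondrial enzyme for the same amino acid (log2 scale, Th0+Dopa minus Th0), in libraries 2 (circles) and libraries 3 (squares). In 6 pairings both points lie right of 0, in 4 both lie left, and in 6 they lie on opposite sides.

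Mars, the cytosolic methionyl enzyme, had 49.3 and 51.3 FPKM in Th0 and 66.7 and 70.9 with dopamine (0.44 ± 0.11, limma adjusted p = 0.0564). Mars is outside the chosen set, did not pass the test, and was named only once its values were known. Among 7 other synthetases and proofreading enzymes 0 were called, against 6.28% of all tested genes called higher. At an unadjusted p under 0.05 by limma there were 3, against 15.7% of all tested genes higher at that threshold. The largest differences were those of Dtd1, which removes D-amino acids from tRNA, at 0.47 ± 0.14, and Aarsd1, an alanyl editing enzyme, at 0.47 ± 0.15. None of 4 partners of mitochondrial charging (Mtfmt, Gatb, Gatc and Qrsl1) was called (0 at an unadjusted p under 0.05), and their median was 0.08. Beside those shares of all genes, 0 calls in sets this small is no result about them.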

How the data were processed

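Per the labels' protocols, DNase-treated total RNA was made into stranded libraries after depletion of ribosomal and globin RNA, and sequenced paired-end. The authors deposited FPKM values in 2 tables, made separately. Alignment with STAR 2.4.2 to mm10 and Cufflinks 2.2.1, after bcl2fastq 1.8.4, FastQC 0.10.1 and Trimmomatic 0.35, is what the submitters' processing notes list; the annotation release, normalization options and use of strand were not stated there. Read counts were not used here; fragments were estimated from the low values of single-transcript genes (89.5% to 90.7% within 0.15 of a whole fragment, with 140 bases taken off the length, a number chosen on these data because most low values then came out whole). GENCODE M21 (GRCm38) named 36423 of 38282 IDs and gave positions, GC content and transcript length.

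Genes with a mean of at least 1 FPKM were tested on log2(FPKM + 1), a scale that understates changes of low genes, with limma 3.58.1 (lmFit, eBayes with trend) in R 4.3.3, two-sided, the table as a block, on 1 residual and 4.70 prior degrees of freedom. The fit was tested on simulated data. In 2 pairs the deviations of same-numbered libraries correlated at r = 0.0869, and the labels tie a number to no shared culture; the block stands for the tables. Libraries left out were fitted without the block, after median-of-ratios scaling, with a lone library assumed to vary like the others. Members and lists were chosen with earlier results of these data known. Library values are given for called members, the most abundant of each class and those with the largest difference; other members were added with their values known. Alternatives tried were pseudocounts, filters, scalings, a GC and length correction, no trend, no block and each library left out.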

Additional observations from a re-analysis of the deposited data

How the results depend on the processing

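As deposited, 7 members rose and 0 fell. The same 7 were called with a pseudocount of 5, a filter at 5 FPKM, median-of-ratios scaling and the GC and length correction, and 8 with a pseudocount of 0.1, which added Sars. With no filter 6 were called (without Yars2), and with a filter at 0.1 FPKM 3, where 2.29% of all genes were called higher. Scaling to a common sum over all genes, or over protein-coding nuclear genes, left 2 in each case. Over all genes these scalings gave 376 higher and 1064 lower, and 429 and 694, against 717 and 501 as deposited. Without the trend 0 were called, with 0.928% of all genes called higher. Without the replicate block 2 were called, Cars and Nars; the pairing rests only on the tables. The 4 fits that each left out a library called 0 members. No member was called lower in any of these fits, and the 7 kept their sign in each.

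The gap between known ATF4 targets and other cytosolic members, 0.27 as the difference of the fitted medians, was 0.31 after the GC and length correction, 0.26 with a pseudocount of 5, and 0.28 to 0.40 with a library left out. The gap between cytosolic and mitochondrial medians, 0.06, ran from -0.13 to 0.15 with a library left out. The cause of these changes was not tested. By the estimate from low values, the thinnest library of each mitochondrial gene held from 22.9 fragments (Aars2) to 519 (Iars2). Mars2 (at least 314) and Fars2 (at least 29.01) had the same SE of 0.17, at mean levels of 8.24 and 8.39 FPKM. With the trend, limma ties the SE of a gene in part to its mean level, so this equality does not bear on depth. Depth was not tested as the source of the wider errors.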

Other observations

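Of 9 genes of tRNA maturation and export, 7 had a positive difference. Tsen54, a subunit of the tRNA splicing endonuclease, rose, from 7.75 and 7.22 FPKM in Th0 2 and 3 to 14.6 and 13.5 in the dopamine libraries (0.83 ± 0.16, limma adjusted p = 0.0328). Elac2, which trims the 3′ end of tRNA precursors in nucleus and mitochondria, had 30.6 and 24.2 FPKM against 41.6 and 38.8 (0.54 ± 0.13, adjusted p = 0.0523), and Xpot, the exporter of tRNA from the nucleus, had 24.5 and 22.3 against 33.4 and 34.9 (0.53 ± 0.13, adjusted p = 0.0562). Neither passed the test. The groups did not overlap for either gene, which with 2 libraries per group is a description only. Rtcb, the ligase that joins the pieces of spliced tRNA, had 0.31 ± 0.10 (adjusted p = 0.116). In all 1 of the 9 rose and 0 fell, with a median of 0.33, against 6.28% of all tested genes called higher. Tsen34 and Tsen15, also subunits of the endonuclease, had 0.33 ± 0.17 and -0.03 ± 0.15.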
